A study of Homo sapiens with 6 samples.

Results

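CTCF peaks of lung fibroblasts treated with inflachromene (ICM), a small molecule that binds HMGB proteins, were set directly against those of replicatively senescent fibroblasts, to ask which CTCF positions of senescent cells are also found after ICM treatment and which are not. The members were all peaks of both CUT&Tag lists on chromosomes 1 to 22 and X, 6728 from ICM-treated and 8577 from senescent cells, thus 15305 of the 65603 peaks in the 6 lists of the series. Peaks of both lists were matched when they overlapped by at least 1 bp over their whole length. The series holds IMR90 cells, which are primary human fetal lung fibroblasts. They were profiled with antibodies against CTCF and the cohesin subunit SMC1 in low-passage control, ICM-treated and high-passage senescent cultures. For ICM-treated cells the CTCF label gives a p number of 16, taken here as the passage, and 6 days of treatment, without a dose. For senescent cells it gives the p number 34 and no treatment. Passage and ICM treatment thus differ together between the compared libraries and cannot be told apart here. The CTCF control has the p number 21, so it differs from the ICM library in passage as well as in treatment. The SMC1 libraries have the p number 16 for control and ICM-treated and 34 for senescent cells. There was 1 library on each side, so no difference could be set against a spread between cultures and no test between conditions was possible.

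CTCF is a zinc finger protein that binds DNA through a long motif, halts the cohesin ring as it extrudes chromatin loops, and thereby marks many loop anchors and domain boundaries. It also occupies many gene promoters. HMGB1 and HMGB2 are abundant architectural chromatin proteins that leave the nucleus as fibroblasts become senescent, a state of lasting growth arrest with a secretory phenotype.

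The peaks absent from the other list sat mostly at gene starts in ICM-treated cells and mostly away from them in senescent cells, so the sequences just upstream of such starts are shown first. The 250 bases before the gene start are given for promoters that hold the CTCF summit inside this stretch, read 5′ to 3′ on the gene's strand from RefSeq GRCh38.p14. Capitals mark the letters CCNNNAGNNGGC, a core of the CTCF motif, or their reverse complement where present. NADK2 and ZC3H7A had a CTCF peak only in the ICM list. FMO4 and FAM76A had one only in the senescent list. HNRNPA0 and PTPRU were in both lists but ranked far higher among ICM peaks.
NADK2: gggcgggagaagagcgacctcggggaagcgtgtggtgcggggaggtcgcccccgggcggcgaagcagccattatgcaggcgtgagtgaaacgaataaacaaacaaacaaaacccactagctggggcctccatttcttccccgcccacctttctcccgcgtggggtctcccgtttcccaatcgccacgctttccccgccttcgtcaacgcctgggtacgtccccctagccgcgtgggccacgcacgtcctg
ZC3H7A: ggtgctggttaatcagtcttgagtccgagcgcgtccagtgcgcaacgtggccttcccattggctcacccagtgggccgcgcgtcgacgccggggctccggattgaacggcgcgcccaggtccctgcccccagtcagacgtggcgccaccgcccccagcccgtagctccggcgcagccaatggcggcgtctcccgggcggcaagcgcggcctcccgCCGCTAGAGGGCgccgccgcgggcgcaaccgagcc
FMO4: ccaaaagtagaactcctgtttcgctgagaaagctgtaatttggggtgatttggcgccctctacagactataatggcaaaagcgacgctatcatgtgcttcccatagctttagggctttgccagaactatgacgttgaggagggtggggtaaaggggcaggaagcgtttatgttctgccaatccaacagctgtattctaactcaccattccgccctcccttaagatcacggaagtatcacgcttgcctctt
FAM76A: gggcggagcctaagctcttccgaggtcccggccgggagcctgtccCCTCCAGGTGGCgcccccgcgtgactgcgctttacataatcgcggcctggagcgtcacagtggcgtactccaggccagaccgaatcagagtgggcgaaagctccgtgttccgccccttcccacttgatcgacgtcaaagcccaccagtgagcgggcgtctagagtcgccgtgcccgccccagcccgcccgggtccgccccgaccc
HNRNPA0: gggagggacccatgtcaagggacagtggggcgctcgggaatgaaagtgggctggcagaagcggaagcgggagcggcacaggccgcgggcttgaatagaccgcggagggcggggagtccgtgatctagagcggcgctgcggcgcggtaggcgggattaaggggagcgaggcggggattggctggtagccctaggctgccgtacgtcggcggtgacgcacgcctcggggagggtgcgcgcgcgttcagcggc
PTPRU: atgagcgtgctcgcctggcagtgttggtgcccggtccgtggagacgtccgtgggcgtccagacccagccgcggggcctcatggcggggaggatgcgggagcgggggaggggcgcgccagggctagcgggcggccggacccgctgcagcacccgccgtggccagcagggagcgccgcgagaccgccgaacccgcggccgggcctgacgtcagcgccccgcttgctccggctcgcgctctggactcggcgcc
The NADK2 stretch is chr5:36241926-36242175 on the minus strand, with the ICM summit 172 bp before the start. For ZC3H7A it is chr16:11797259-11797508, minus strand, with the summit at 91 bp and the motif letters beginning 35 bp before the start. For FMO4 it is chr1:171313933-171314182, plus strand, with the senescent summit at 161 bp. In FAM76A, chr1:27725711-27725960 on the plus strand, the letters begin 205 bp and the summit lies 139 bp before the start. The HNRNPA0 stretch is chr5:137754364-137754613, minus strand, and that of PTPRU is chr1:29236272-29236521, plus strand, with senescent summits 159 and 48 bp before the start and ICM summits 1 and 3 bp from them. A match of these letters is a description and not a binding site, and its lack says only that this spelling is not in the window.

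Most ICM peaks had a counterpart in senescent cells, whereas a larger part of the senescent list had none in ICM-treated cells. Of the 6728 ICM peaks, 5467 (81.3%, exact Clopper-Pearson 95% interval 80.3 to 82.2) overlapped a senescent peak and 1261 did not, which is 18.7% of the list. Of the 8577 senescent peaks, 5627 (65.6%, 64.6 to 66.6) overlapped an ICM peak and 2950 did not, which is 34.4%. All intervals given here cover counting over peaks only. The share moved in opposite directions once the lists had the same length. With both lists cut to their 6728 peaks of highest total signal, 72.9% of ICM and 74.6% of senescent peaks were matched.

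The lists also differed in ways that bear on matching. The median peak was 1960.5 bp wide in the ICM list and 1120 bp wide in the senescent list. The weakest listed peak had a total signal of 20161 in ICM-treated and 6267 in senescent cells, in the authors' units. The number of reads behind each list is unknown here. The part of width and threshold in the results was not tested beyond the alternatives named. The peaks without a counterpart seldom lay close to a listed peak of the other side. Their median distance to the closest peak of the other list was 50626 bp for ICM-only and 56064.5 bp for senescent-only peaks, and 35 and 81 of them respectively lay within 1 kb of one. A position just below the threshold of the other list leaves no peak there, so these distances do not speak to the threshold.

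Peaks held by 1 list alone were weak members of that list. Total signal is the coverage summed over a peak, highest signal its maximum, and both were turned into percentiles within each list, since the lists share no scale. ICM-only peaks had a median percentile of 24.0 by total signal beside 57.6 for shared ICM peaks, and senescent-only peaks 26.1 beside 65.8. By highest signal the medians were 15.7 beside 58.4 in the ICM list and 35.2 beside 61.9 in the senescent list. In the top decile by total signal stood 2 ICM-only peaks and 1 senescent-only peak. The strongest CTCF positions were therefore almost all shared. Near the top of both lists was a peak inside RIPOR1, which encodes an inhibitor of RhoA signalling (chr16:67520549-67522433 in the ICM list), with percentiles of 99.96 and 99.97 by total signal in ICM-treated and senescent cells.

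ICM-only and senescent-only peaks differed most in their position. A summit within 1 kb of a gene start, here called a promoter summit, was found for 62.8% (60.1 to 65.5) of ICM-only peaks and for 12.0% (10.8 to 13.2) of senescent-only peaks. Shared peaks stood between them, at 34.3% by their ICM summit and 33.4% by their senescent summit. Senescent-only summits lay elsewhere inside a gene in 51.5% and between genes in 36.5% of cases, against 24.4% and 12.8% of ICM-only summits. The median distance to the nearest gene start was 330 bp for ICM-only peaks, 4569 bp for shared ICM peaks and 9705.5 bp for senescent-only peaks. The plot of summit position shows that each class of position changed in the same order across the 4 sets of peaks.

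**Figure D1:**
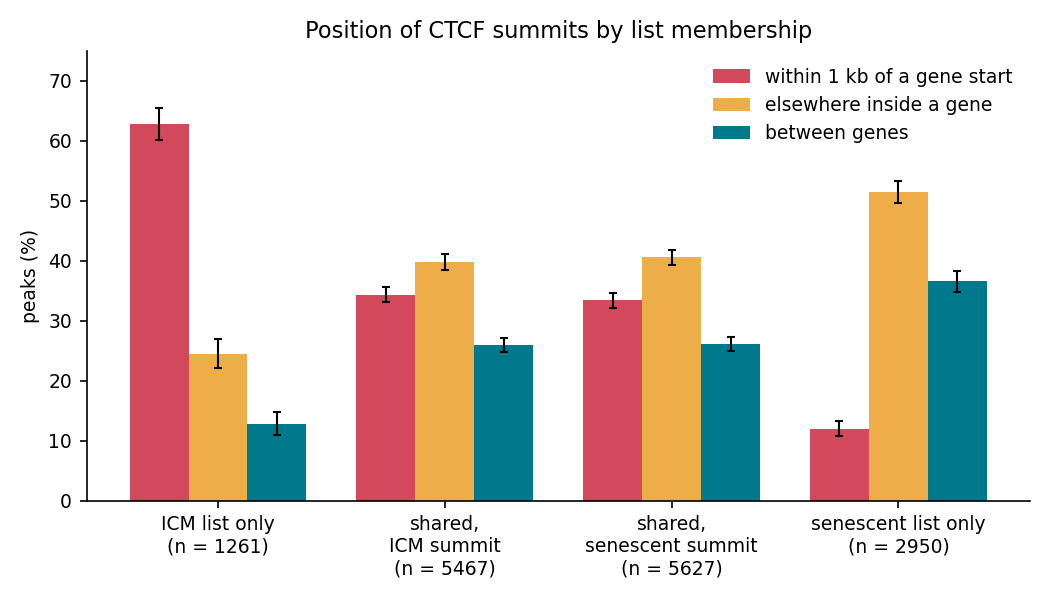
Share of CTCF summits (%, vertical axis) within 1 kb of a gene start, elsewhere inside a gene or between genes, for the 1261 peaks of the ICM list only, the 5467 ICM and 5627 senescent peaks that overlap each other, and the 2950 peaks of the senescent list only. Bars start at 0 and error lines are exact 95% intervals over peaks. The promoter bar falls from 62.8% in ICM-only to 12.0% in senescent-only peaks.

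Seen from the gene starts, 70.3% (68.6 to 72.1) of the 2669 ICM promoter peaks had a senescent counterpart, against 87.6% of ICM peaks elsewhere inside genes and 89.8% between genes. The senescent list showed the opposite order. Of its 2234 promoter peaks 84.2% (82.6 to 85.6) were matched, against 60.04% inside genes and 57.6% between genes.

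This order was present in deciles 1 to 9 of both lists by total signal. In the lowest decile of the ICM list by total signal, 65.5% of promoter peaks and 29.3% of other peaks were absent from the senescent list. In the lowest decile of the senescent list, 42.7% of promoter peaks and 79.3% of other peaks were absent from the ICM list. Among peaks above the median of their list by total signal, 206 were ICM-only, of which 66.5% were promoter peaks, and 473 were senescent-only, of which 7.40% were. Ranked by highest signal instead, 103 ICM-only and 872 senescent-only peaks stood above the median, with promoter shares of 48.5% and 8.03%.

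**Figure D2:**
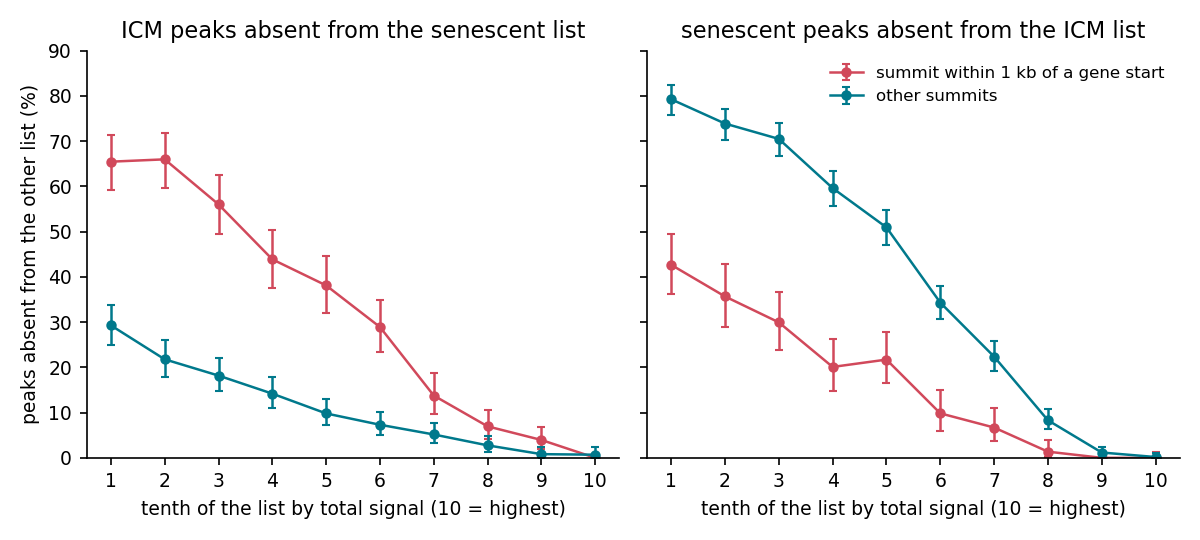
Share of peaks absent from the other list (%, vertical axis) in each decile of total signal within the list (horizontal axis, 10 is the highest), for ICM peaks on the left and senescent peaks on the right. Red points are summits within 1 kb of a gene start, blue points all others, and error lines are exact 95% intervals. In the lowest decile the promoter points are the higher ones among ICM peaks, 65.5% against 29.3%, and the lower ones among senescent peaks, 42.7% against 79.3%.

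The ICM-only peaks of highest total signal lay at or near starts of named genes. The first was inside RUNX1, a transcription factor best known from blood formation, 1460 bp from its nearest annotated start (chr21:34887833-34891754), with a total signal of 78833 and percentiles of 90.9 by total and 86.1 by highest signal. GRK5, a kinase of G protein-coupled receptors, held the next one 1891 bp from its start (chr10:119206141-119210373, percentiles 90.9 and 47.6). BRD2, a bromodomain reader of acetylated histones, followed with a peak 6116 bp wide (chr6:32967201-32973316, 89.8 and 12.3). These were broad peaks, and that of BRD2 had a low maximum for its total. SPIN1, a reader of methylated histone tails, had the highest maximum of the ICM-only promoter peaks (chr9:88387450-88389560, 89.6 and 97.7), 146 bp from the start. ADAMTS1, a secreted metalloproteinase, had a peak 979 bp from its start (chr21:26842674-26847247, 89.3 and 15.7).

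By highest signal the ICM-only promoter peaks after SPIN1 belonged to ACTB, the gene of cytoplasmic beta-actin (chr7:5527719-5531467, percentile 76.5), NADK2, the mitochondrial NAD kinase (chr5:36240566-36242549, 75.3), ZC3H7A, a CCCH zinc finger protein (chr16:11796995-11798581, 75.3), and PTPN11, which encodes the phosphatase SHP2 (chr12:112418092-112420224, 74.7). Of these 9 ICM-only peaks, that of ZC3H7A was the only one without a peak in the CTCF list of control cells. The peaks at ACTB, ZC3H7A and PTPN11 overlapped no SMC1 peak of ICM-treated cells, whereas the other 6 did.

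The strongest senescent-only peaks lay away from gene starts. The first was between genes, 5727 bp from the start of MIEF1, an adaptor of mitochondrial fission (chr22:39493255-39497052), with a total signal of 25721 and percentiles of 92.4 by total and 24.2 by highest signal. The next stood 3660 bp from the start of the pseudogene PRSS30P (chr16:2838621-2839573, 89.6 and 88.3). Another lay inside IQSEC3, an exchange factor for ARF GTPases at synapses (chr12:152102-153634, 89.5 and 96.3). LINC00620, a long non-coding RNA gene, held a further one (chr3:13657386-13658647, 87.3 and 85.2). The last of these 5 was 159672 bp from the nearest annotated start (chr18:46280691-46281884, 83.8 and 84.4). All 5 overlapped an SMC1 peak of senescent cells, and those near MIEF1 and PRSS30P and on chromosome 18 also overlapped a control CTCF peak.

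Among senescent-only promoter peaks, those of highest maximum belonged to SH3GLB2, an endophilin (chr9:129028377-129028793, percentile 92.9 by highest signal), FMO4, a flavin-containing monooxygenase (chr1:171313682-171314262, 89.96), SELENOM, a selenoprotein of the endoplasmic reticulum (chr22:31107602-31108216, 89.4), FAM76A (chr1:27725438-27726225, 85.2) and CD300LG, an immunoglobulin-like receptor (chr17:43846145-43846713, 82.1). They were narrow, between 417 and 788 bp, and none overlapped a control CTCF peak. Over both choices of named peaks, 8 of 9 ICM-only and 3 of 10 senescent-only peaks overlapped one.

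The CTCF list of control cells, which took no part in the matching, overlapped the single-list peaks unevenly. A control peak overlapped 27.6% (25.1 to 30.2) of ICM-only peaks and 6.78% (5.90 to 7.75) of senescent-only peaks, beside 73.9% and 73.7% of shared ICM and senescent peaks. At promoters the single-list shares were 32.2% and 10.5%, inside genes 19.5% and 7.38%, and between genes 20.5% and 4.73%. The control list was nearer the ICM list in median width (1797 bp) and weakest total signal (14246). The part of this likeness in the shares was not tested. Peaks of higher rank more often had a control counterpart. Above the median by total signal, 64.6% of ICM-only and 18.2% of senescent-only peaks overlapped one. When only the peaks above the median of each list were matched with each other, these shares came to 80.2% and 44.8%, since peaks could then lack a counterpart that stands lower in the other list.

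Control CTCF peaks missing from senescent cells were mostly present after ICM treatment, though less often so than control peaks at large. Of the 4673 control peaks, 431 (9.22%, 8.41 to 10.1) had no senescent counterpart, and 357 of these (82.8%, 78.9 to 86.3) were in the ICM list. Promoters accounted for most of them. The senescent list lacked 15.8% of the 1907 control promoter peaks, against 5.15% of control peaks inside genes and 3.97% between genes, and 87.0% (82.7 to 90.6) of the missing promoter peaks were found in ICM-treated cells. For comparison, the ICM list lacked 260 (5.56%, 4.92 to 6.26) of all 4673 control peaks. Presence in the ICM list was thus not particular to the peaks missing from senescent cells.

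The converse set holds the senescent peaks without a control counterpart, 4227 in all. The ICM list contained 34.9% (33.5 to 36.4) of them, whereas it contained 95.4% of senescent peaks with a control counterpart. At promoters 49.6% of the 629 senescent peaks without a control peak were found after ICM treatment, inside genes 33.0% of 2099 and between genes 31.5% of 1499. Of the 2341 ICM peaks without a control counterpart, 61.0% (59.0 to 63.0) were in the senescent list, 36.5% at promoters, 72.8% inside genes and 78.0% between genes. Positions outside promoters that ICM-treated cells held beyond the control list were thus for the most part also senescent positions, while the senescent list held many more that ICM-treated cells lacked. The control library has the p number 21, and its list is the shortest, so its missing peaks include positions below its threshold.

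SMC1 lists gave a further readout from another antibody. Its label for ICM-treated cells gives no number of days, so the treatment time may differ from that of the CTCF library. Of ICM-only CTCF peaks, 72.2% (69.7 to 74.7) overlapped an SMC1 peak of ICM-treated cells, close to the 72.7% (71.5 to 73.8) of shared ICM peaks. Senescent-only peaks overlapped an SMC1 peak of senescent cells in 25.3% (23.7 to 26.9) of cases, well under the 63.3% (62.0 to 64.5) of shared senescent peaks. The share was low with each SMC1 list, since 32.6% of senescent-only peaks overlapped an SMC1 peak of ICM-treated and 23.6% one of control cells. The plot of overlap with the unused lists shows these values side by side.

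**Figure D3:**
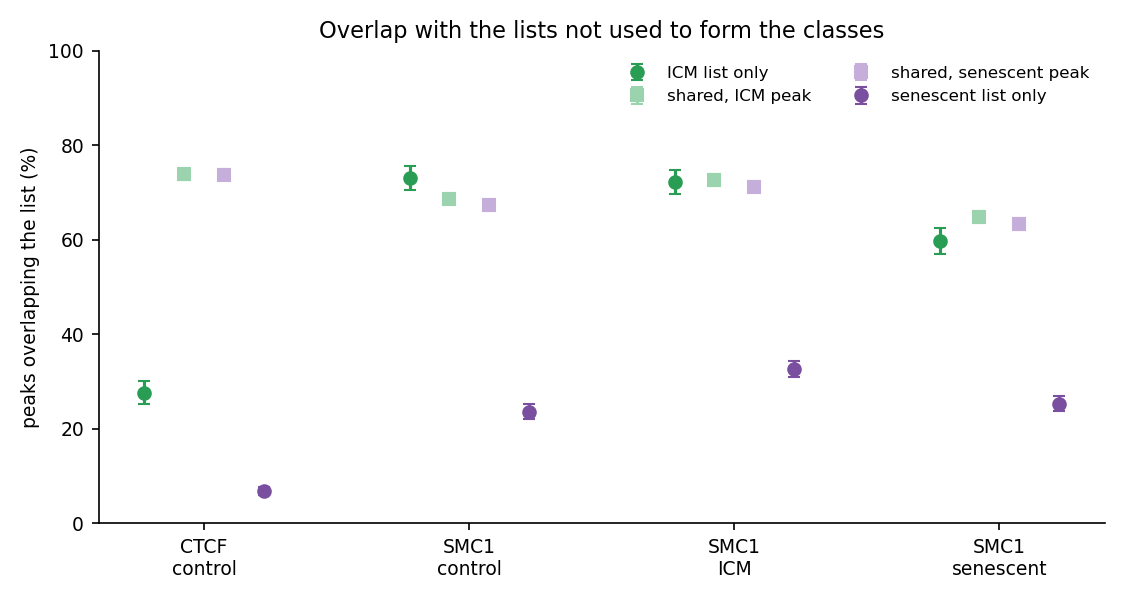
Share of CTCF peaks (%, vertical axis) that overlap the control CTCF list and each of the 3 SMC1 lists (horizontal axis), for ICM-only (green circles), shared ICM (pale green squares), shared senescent (pale violet squares) and senescent-only peaks (violet circles). Error lines are exact 95% intervals over peaks. Senescent-only peaks are lowest at each list, between 6.78% and 32.6%, and ICM-only peaks stand apart from shared ones chiefly at the control CTCF list, with 27.6% against 73.9%.

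The gap in SMC1 overlap of senescent-only peaks was present in each position. At senescent promoters 35.3% of single-list and 72.0% of shared peaks overlapped SMC1, inside genes 24.5% and 57.7%, and between genes 23.01% and 60.8%. Among peaks above the median of the senescent list they were 39.5% and 68.9%, and below it 22.5% and 51.5%. For ICM peaks the corresponding shares at promoters were 78.5% and 79.4%, inside genes 65.6% and 68.9%, and between genes 54.0% and 69.4%. Above the median of the ICM list they were 80.6% and 82.0%. Below it 70.6% of ICM-only but 59.8% of shared peaks overlapped SMC1, so the near equality over the whole list did not hold there. The SMC1 shares depended on the overlap rule. With windows of 100 bp around summits for this overlap alone, they were 34.7% of ICM-only against 49.4% of shared ICM peaks, and 19.8% of senescent-only against 42.7% of shared senescent peaks. With a reciprocal overlap of 50% they were 31.7% against 29.7% and 23.5% against 53.1%. The gap between senescent-only and shared senescent peaks was thus present under each rule, whereas ICM-only peaks stood below shared ones by summit windows. When the lists themselves were matched by these rules too, which left more single-list peaks, the shares of ICM-only and senescent-only peaks were 30.8% and 23.2% by summit windows and 20.4% and 32.0% by reciprocal overlap, so their order turned under the latter.

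Of the matched peaks, 5305 pairs overlapped only each other and served to compare ranks. Spearman's rho between the lists across these loci, which are not independent and whose signal partly follows peak width, was 0.619 for total and 0.674 for highest signal. The summits lay a median of 23 bp apart, and in 81.8% of loci within 100 bp. The ICM peak was the wider one in 91.6% of loci, with a median ratio of 1.48. Matched peaks thus had their summits at nearly the same place although their widths differed.

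Shared promoter loci stood lower in the senescent list relative to other shared loci. The median shift in percentile by total signal, senescent minus ICM, was 6.44 points over all 5305 loci, which the larger number of low-ranked single-list peaks in the senescent list raises by construction. Beside this it was -2.57 points at the 1791 promoter loci, 12.9 inside genes and 13.4 between genes. By highest signal it was 1.41 over all loci and -7.24, 6.13 and 6.15 in these positions. With percentiles taken among the 5305 loci only, the median by total signal was 0.952 over all loci, -8.92 at promoters, 6.67 inside genes and 7.28 between genes. A promoter locus stood lower in the senescent list by both measures in 52.4% of cases and higher by both in 27.4%, whereas between genes 18.9% stood lower and 60.3% higher. Over all loci these shares were 31.0% and 48.5%.

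A shift of at least 50 points was used for the largest changes of rank. By total signal 238 loci (4.49%) ranked higher in senescent and 104 (1.96%) higher in ICM-treated cells. By highest signal the counts were 55 (1.04%) and 148 (2.79%), so the direction with more loci depended on the measure. With mean coverage 234 and 248 loci passed. With percentiles taken among the 5305 loci only, 108 ranked higher in senescent and 185 higher in ICM-treated cells by total signal, and 61 and 151 by highest signal. The larger count on the senescent side was thus seen only by total signal within the complete lists. The composition depended on the measure less. Of all 5305 loci, 33.8% were promoter loci. They made up 9.66% of the loci higher in senescent and 57.7% of the loci higher in ICM-treated cells by total signal. By highest signal they were 10.9% and 68.9%, and by mean coverage 12.8% and 58.5%. Among the loci ranked against each other only, they were 6.48% of the former and 111 of 185 of the latter by total signal. A control CTCF peak overlapped 46.6% of the former and 92.3% of the latter by total signal, beside 73.2% of all 5305 loci. A shift of this size places the former below and the latter above the median of the ICM list. Shared ICM peaks overlapped a control peak in 45.1% of cases below that median and in 94.9% above it. These control shares therefore restate the rank in the ICM list and are no trait of the shifted loci. The promoter share also followed rank. It was 41.8% of shared ICM peaks above and 24.1% below the median of their list. Among shared senescent peaks it was 29.8% above and 41.0% below. The part of rank in the promoter composition of the shifted loci was not tested. Just inside the limit were the loci nearest TMBIM1 and RNF216-IT1, with shifts of 50.05 and 50.10 points, and just outside it those nearest ITGA4 and FABP6-AS1, with -49.91 and 49.92 points.

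**Figure D4:**
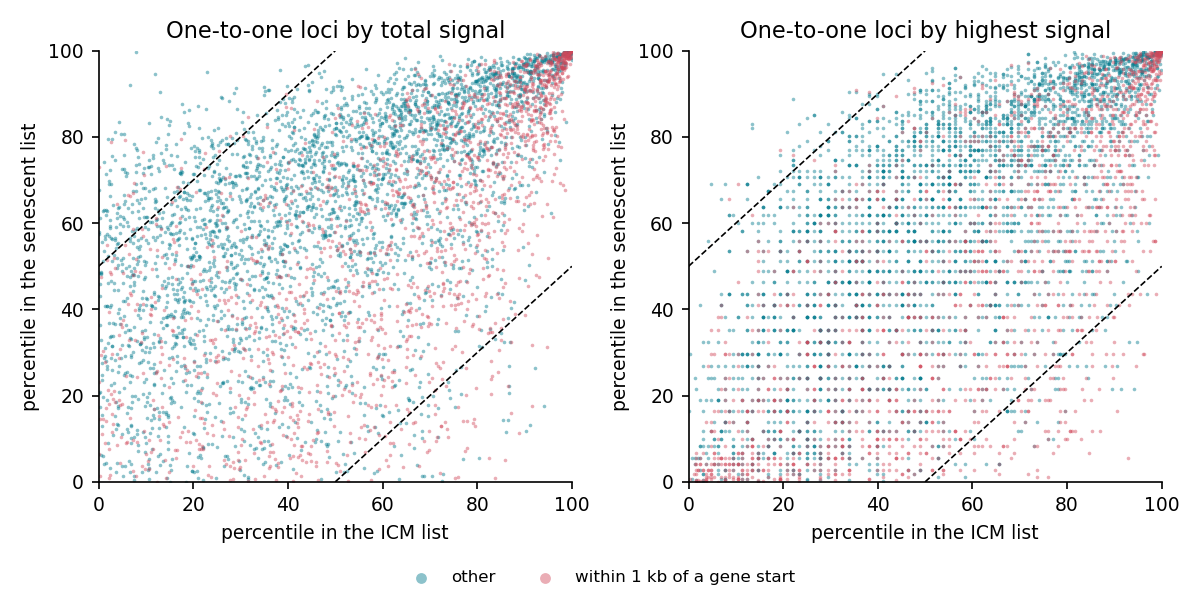
Percentile of the 5305 one-to-one CTCF loci in the ICM list (horizontal axis) and in the senescent list (vertical axis), by total signal on the left and by highest signal on the right, where tied whole-number signals form rows and columns. Red points have a senescent summit within 1 kb of a gene start, blue points all others, and dashed lines mark a shift of 50 points. By total signal 238 loci reach the upper line and 104 the lower one, where red points are 57.7%.

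Loci that passed 50 points by both measures numbered 35 (0.66% of 5305) for ICM and 24 (0.45%) for senescent cells. ENSA, which encodes an inhibitor of the phosphatase PP2A, had a total signal of 45839 in ICM-treated (chr1:150628770-150630715) and 6392 in senescent cells. Its percentile was 72.1 in the ICM list and 2.10 in the senescent list by total, and 77.0 and 6.80 by highest signal, with summits 186 bp apart. It thus went from the upper part of one list to the bottom of the other. DSN1, a kinetochore subunit, had percentiles of 79.3 and 14.5 by total and 73.6 and 2.82 by highest signal (chr20:36772856-36774934). PTPRU, a receptor tyrosine phosphatase, stood at 86.4 and 22.2 by total and 83.5 and 18.9 by highest signal (chr1:29235102-29238559). HNRNPA0, an RNA-binding protein, stood at 69.4 and 7.01 by total and 64.8 and 2.82 by highest signal (chr5:137752769-137755518). IRS1, the insulin receptor substrate, had a locus inside the gene at 94.2 and 17.7 by total and 65.7 and 4.10 by highest signal, where the ICM peak was 7943 bp and the senescent peak 1605 bp wide (chr2:226794066-226802008). All 5 loci overlapped a control CTCF peak and an SMC1 peak of ICM-treated cells, as did 34 and 26 of the 35 loci respectively. The summits at the first 4 lay within 1 kb of a gene start.

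The 5 loci with the largest shift towards senescent cells included no promoter. The locus inside GNA15, a G protein alpha subunit, had a total signal of 20501 in ICM-treated and 14177 in senescent cells (chr19:3163082-3164077 in the senescent list). Its percentile was 2.13 in the ICM list and 69.2 in the senescent list by total, and 13.4 and 82.1 by highest signal. The locus 1105 bp from the start of HDAC10, a polyamine deacetylase, stood at 11.8 and 94.6 by total and 22.1 and 88.9 by highest signal (chr22:50250120-50253466). By mean coverage this locus shifted by -22.9 points, that is in the other direction, where the senescent peak was 3347 bp and the ICM peak 1113 bp wide. The locus inside SLC49A3 rose from 3.35 in the ICM list to 81.2 in the senescent list by total signal (chr4:683367-684624), and its summits coincided. The others lay between genes at chr3:126678993-126679859, with 14.8 and 82.8 by total signal, and inside LOC107984218 at chr10:29998106-29999297, with 2.42 and 72.2. Neither of these last loci overlapped a control CTCF peak.

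Promoters of the peaks differed in sequence composition as well. In the 300 bases around a gene start that RefSeq GRCh38.p14 gives, from 250 before to 50 after it, the letters CCNNNAGNNGGC or their reverse complement GCCNNCTNNNGG occurred in 20.2% (16.6 to 24.2) of the 450 such windows with an ICM-only summit. They occurred in 36.8% (33.8 to 39.8) of 1012 windows with a shared ICM summit, 35.6% of 1050 with a shared senescent summit and 33.1% (26.1 to 40.8) of 169 with a senescent-only summit. Among all 34788 windows the share was 10.6%. The study describes a filter of its CTCF peaks for a motif. In each condition the deposited CTCF list is slightly longer than the filtered count the study reports, so it is not that filtered set. Whether some other motif filter was applied is not known here, and these shares may depend on it. In the lists as deposited, ICM-only promoters held the letters less often than the other peak classes and more often than promoters at large.

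The windows also differed in GC content, whose median was 67.2% for ICM-only, 67.0% for shared ICM, 63.7% for senescent-only summits and 58.7% for all windows. In windows of 60 to 70% GC the letters were found in 17.5% (12.5 to 23.6) of 194 ICM-only, 35.4% (31.2 to 39.8) of 494 shared ICM, 29.8% (20.3 to 40.7) of 84 senescent-only and 14.4% (13.7 to 15.1) of all 9504 windows. At like GC content the ICM-only value was therefore near that of all promoters. The median number of CpG dinucleotides per window was 29 for ICM-only, 27 for shared ICM, 24 for senescent-only and 14 for all windows.

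Genes grouped by function were then read for a promoter peak in only 1 of the lists. Of 19630 protein-coding genes with an annotated start, 870 (4.43%) had a promoter peak in the ICM list with no senescent peak overlapping it, 244 (1.24%) had one in the senescent list alone, and 1738 (8.85%) had one in both. Over 6 lists of 30 genes each, 18 of 180 genes were in the ICM list alone, 2 in the senescent list alone and 30 in both. In 1 of these 30 genes, PCNA, the strongest promoter peaks of the lists did not overlap each other. Of the 18 peaks at genes in the ICM list alone, 9 overlapped a control CTCF peak and 6 ranked above the median of the ICM list by total signal.

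Genes of CTCF, cohesin, HMG box, lamin and heterochromatin proteins had 5 of 30 in the ICM list alone and 0 in the senescent list alone. They were SMC3, the cohesin ring subunit, and NIPBL, which loads cohesin, together with HMGB2, LMNB1, the lamin B1 gene, and CBX3, the heterochromatin protein HP1 gamma. NIPBL had an ICM percentile of 57.2 by total signal (chr5:36875081-36877677) and of 9.50 by highest signal, and overlapped a control peak. By total signal HMGB2 had 2.78 (chr4:173333817-173335404), SMC3 9.63, CBX3 8.98 and LMNB1 26.0, and by highest signal the percentiles were 15.7, 14.6, 13.4 and 3.08 in that order. All 5 were thus low by highest signal, and 4 of them by total signal as well. Among the 6 genes in both lists, CTCF itself had percentiles of 95.8 in ICM-treated and 82.3 in senescent cells by total signal, and 94.6 and 26.8 by highest signal. CBX5, the gene of HP1 alpha, had 73.1 and 14.0 by total and 38.2 and 8.23 by highest signal. STAG1, a cohesin subunit, had 93.4 and 83.2 by total and 94.6 and 85.9 by highest signal. PDS5B went the other way, with 58.4 and 72.3 by total and 83.1 and 86.5 by highest signal. CBX1 and TRIM28 stood lower in the senescent list by both measures.

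Extracellular matrix and contractile genes had 4 of 30 in the ICM list alone, 0 in the senescent list alone and 8 in both. Besides ACTB these were VIM, which encodes the intermediate filament vimentin (percentile 88.4 by total, 15.7 by highest signal), COL1A2, a chain of type I collagen (46.2 and 18.0), and PDGFRB, a receptor of platelet-derived growth factor (32.6 and 2.497). VIM and ACTB overlapped control peaks, and COL1A2 and PDGFRB did not. Each of the 8 shared promoters stood lower in the senescent list by both measures. COL1A1, the other chain of type I collagen, had percentiles of 98.6 in ICM-treated and 67.8 in senescent cells by total signal. LOX, a collagen cross-linking enzyme, had 77.5 and 26.4, and THBS1, the matrix protein thrombospondin 1, had 97.5 and 69.2. For comparison, 52.4% of all one-to-one promoter loci stood lower in the senescent list by both measures.

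Cell-cycle and arrest genes had 3 of 30 in the ICM list alone, namely CDK6, a G1 kinase (77.2 by total, 18.0 by highest signal), its partner CCND3 (45.8 and 3.61) and the topoisomerase gene TOP2A (36.0 and 18.0), with 0 in the senescent list alone. Genes with a promoter peak in both lists included CDKN2B, MDM2 and PCNA. CDKN2B, an inhibitor of CDK4 and CDK6, had percentiles of 96.3 in ICM-treated and 81.9 in senescent cells by total and 94.6 and 48.8 by highest signal. The promoter of MDM2, a ubiquitin ligase, stood at 43.9 and 4.59 by total and 10.4 and 4.10 by highest signal, near the bottom of the senescent list by both. For PCNA, the sliding clamp of DNA replication, the peaks of the lists did not overlap (chr20:5118757-5120470 in ICM-treated and chr20:5126149-5128062 in senescent cells), so its percentiles are not set side by side.

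Of the secretory phenotype genes of senescence, 2 of 30 were in the ICM list alone, IL6, an interleukin (70.1 by total, 10.4 by highest signal), and CEBPB, a transcription factor of secretory genes (82.1 and 58.4). Both overlapped a control peak. In both lists was VEGFA, with percentiles of 99.7 in ICM-treated and 95.9 in senescent cells by total signal. TGFB1 had 71.0 and 7.74 by total but 26.5 and 26.8 by highest signal, so its shift was seen by total signal only. A further 26 of the 30 genes had a promoter peak in neither list. Lung mesenchyme and HOX genes had 2 of 30 in the ICM list alone, FOXF1 (33.0 by total, 0.208 by highest signal) and GLI2 (2.09 and 2.04), both near the bottom of the list by highest signal. GLI1, a transcription factor of hedgehog signalling, was high in both lists, with 99.5 and 97.2 by total and 97.3 and 98.2 by highest signal.

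Interferon and inflammatory response genes were the group with peaks in the senescent list alone. IFITM1 and IFITM2, neighbouring genes of interferon-induced membrane proteins, had senescent percentiles of 20.02 and 8.27 by total and 2.82 and 1.82 by highest signal (chr11:313244-314806 and chr11:307256-308906). Their neighbour IFITM3 had a senescent promoter peak at 69.2 by total and 0.729 by highest signal that overlapped an ICM peak whose summit was not at the promoter. These genes are closely similar copies, so the assignment of reads among them is uncertain, and their peaks were broad and low. NFKBIA, the inhibitor of NF-kappa B (15.7 by total, 8.63 by highest signal), and STAT3, a transcription factor of cytokine signalling (19.6 and 39.7), were in the ICM list alone. In both lists were IFI6, IRF3, IRF9, NFKB2 and TNFAIP3, of which IRF9 had percentiles of 85.0 in ICM-treated and 93.9 in senescent cells by total but 87.2 and 84.4 by highest signal. IFI6 stood higher in the senescent list by both measures, with 5.88 and 24.6 by total and 27.9 and 55.9 by highest signal. NFKB2 and TNFAIP3 stood lower there by both.

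Single-list peaks were found on each chromosome. Senescent-only peaks made up between 31.0% and 43.2% of the senescent list on all chromosomes but 18, where they were 51 of 85 peaks (interval 48.8 to 70.5%). The ICM-only share ran from 13.0% (10.1 to 16.3) on chromosome 19 to 36.0% (28.9 to 43.6) on chromosome 4, with 35.8% of 53 peaks on chromosome 18. Chromosome 18 is thus where the lists had least in common in relative terms, on small numbers. The plot of shares by chromosome shows how wide the intervals are there.

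**Figure D5:**
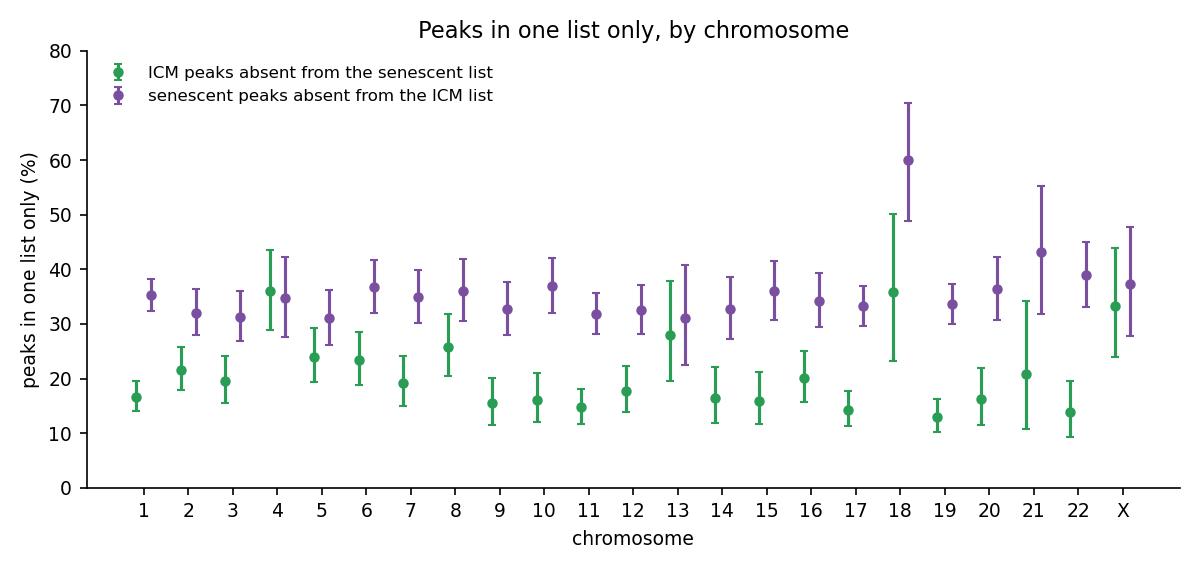
Share of peaks absent from the other list (%, vertical axis) by chromosome (horizontal axis), for ICM peaks in green and senescent peaks in violet, with exact 95% intervals over peaks. The senescent share on chromosome 18 is 51 of 85 peaks, against at most 43.2% on the others, and the ICM share is lowest on chromosome 19 with 13.0%.

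Some senescent-only peaks followed one another along a chromosome. Runs of at least 3 such peaks with no ICM peak between them numbered 217 and held 789 of the 2950 peaks, whereas ICM-only peaks formed 29 runs with 93 of 1261. These counts rise with the share of single-list peaks, which was 34.4% of the senescent and 18.7% of the ICM list. How many runs scattered peaks would form was not computed, so no clustering is read from them. The longest senescent runs had 9 peaks. One spanned chr1:3727114-6245784, from TP73, a transcription factor gene, past AJAP1, NPHP4, KCNAB2 and CHD5 to HES3, with 1 promoter peak, and 4 of its peaks overlapped SMC1 of senescent cells. Another spanned chr18:76405481-79644444, with ZNF516, MBP, the myelin basic protein gene, and the region of NFATC1, and had 0 promoter peaks. The longest ICM runs had 5 peaks. At chr5:43555954-55535741, from PAIP1 to PLPP1, all 5 were promoter peaks, and at chr12:76030633-77011572, from PHLDA1 past BBS10 and CSRP2 to E2F7, 4 of 5 were. A run of 4 at chr8:102862594-103415758, around CTHRC1, a secreted matrix protein gene, had 2.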

How the data were processed

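CUT&Tag, in which a transposase tethered by an antibody cuts the chromatin its target occupies, was applied to IMR90 cells with 1 library per group. Per the submitters' processing notes, Bowtie2 2.3.4.1, Picard 2.20.7, deepTools and SEACR 1.3 were used on GRCh38. The authors called peaks in each library with SEACR in stringent mode, keeping the top 1% of regions, without pooling. The methods also describe a motif filter of CTCF peaks, and whether the deposited lists passed through it is not known here. The deposited lists give each peak's position, total signal and highest signal, as coverage in whole numbers. The methods of the study describe scaling by a bacterial spike-in, which whole numbers do not show, so signal was compared only as percentiles within a list. The read depth is unknown, so no precision per peak can be given.

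The 1 peak on mitochondrial DNA per list was left out. Overlaps, percentiles and shares with exact Clopper-Pearson 95% intervals were computed with Python 3.11.15, pandas 2.3.3 and scipy 1.17.1, and the matching was checked on simulated data. The summit was the midpoint of the region of highest signal. Gene starts came from a RefSeq GRCh38.p14 promoter table, or from the outermost 5′ end in the RefSeq gene table with the strand taken by symbol from GENCODE v44, and covered 47057 of 59098 genes and 19630 of 19974 protein-coding genes. The 180 listed genes all matched. The genome sequence at hand was of another build, so no peak sequence was read.

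Groups came from sample titles, and those with the p number 34 and no treatment were taken as senescent from the series design. Named peaks were the 5 of highest total signal in each single-list class, their 5 promoter peaks of protein-coding genes with the highest maximum, the 5 loci of largest shift each way by the smaller shift of both measures, the 2 loci of highest summed percentile, the 3 longest runs per list, and listed genes with a promoter peak in 1 list only. Some items that this rule names are not reported here. Other named genes were chosen as examples after their values were seen. The comparison, its members and the gene lists were chosen with earlier results of these data known. Alternatives were other overlap rules, lists of equal length, peaks above the median of each list, other ranked measures, ranks among shared loci and other promoter definitions.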

Additional observations from a re-analysis of the deposited data

How the results depend on the processing

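Of 105 alternative values of 12 results, 51 stayed within the interval of the reported value or, for counts of loci, within 1.5 times it, and 54 did not. The contrasts that turned were the order of the matched shares in lists of equal length, the order of the SMC1 shares when the lists were matched by reciprocal overlap, and the order of the counts of loci shifted each way by highest signal, by mean coverage or among one-to-one loci. No paired analysis was possible because each group had 1 library. With windows of 100 bp around summits, 66.4% of ICM and 52.1% of senescent peaks were matched, single-list peaks ranked -17.3 (ICM) and -35.6 points (senescent) from matched ones, the promoter shares of ICM-only and senescent-only peaks differed by 36.8 points, 12.1% of senescent-only peaks had a control peak, and SMC1 overlapped 30.8% of ICM-only and 23.2% of senescent-only peaks. With a reciprocal overlap of 50% the matched shares were 61.1% and 47.9%, the rank differences -17.2 and -36.8, the promoter difference 29.2, the control shares 42.0% and 15.1%, the SMC1 shares 20.4% and 32.0%, the loci ranked higher in ICM-treated cells 29, and rho 0.680. Lists of equal length by total signal gave matched shares of 72.9% and 74.6%, control shares of 32.9% and 9.38% and a senescent SMC1 share of 28.0%, and with summit windows added after seeing the data 60.3% in both directions and a promoter difference of 33.3. Equal length by highest signal gave 67.6% and 69.0% matched, rank differences of -29.9 and -43.5 and an ICM control share of 41.6%. Above the median of each list the matched shares were 78.2% and 62.6%, the ICM rank difference -29.2, the control shares 80.2% and 44.8% and the SMC1 shares 79.5% and 48.1%, and with summit windows, also added later, the promoter difference was 37.2. Ranking by highest signal gave rank differences of -42.7 and -26.7, 55 loci higher in senescent cells and rho 0.674. Ranking by mean coverage gave 248 loci higher in ICM-treated cells and rho 0.522. A whole peak over the gene start in place of a summit near it gave a promoter difference of 56.3. With other rules for the SMC1 overlap alone, added after seeing the data, its shares were 34.7% and 19.8% by summit windows and 31.7% and 23.5% by reciprocal overlap. Ranks among one-to-one loci only, also added then, gave 108 loci higher in senescent and 185 higher in ICM-treated cells by total signal, and 61 in senescent cells by highest signal. Why these values moved was not tested. The matched shares depend on peak width and on the threshold of each list, both of which differ between the libraries, and without replicates or depth a weak peak missing from a list cannot be told apart from a position below its threshold.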
